A study of Mus musculus with 6 samples.

Results

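The genes described here are 36 markers of B and T lymphocytes, 15 of B cells and 21 of T cells, read in white adipose tissue of mice that lack the signalling scaffold KSR2 and of wild-type mice. They were found by symbol in the annotation of the array, and 34 of them, 15 B cell and 19 T cell genes, were read by a probe set assigned to 1 gene, among 18193 genes in all. No such probe set was found for Lck and Tcf7, which were not analysed here. The tested mice were KSR2-/-, homozygous for loss of Ksr2, and the controls were WT, with 3 female mice of each genotype. All 6 carried the C57Bl6 background and were 6 months of age. The RNA of each mouse went onto 1 Affymetrix array, so 1 array stands for 1 animal. The labels name neither the fat depot nor the deleted part of Ksr2, and the numbers 1 to 3 within a genotype are names only. The p-values set the difference between genotypes against the spread between these mice, and are not a measure of that spread.

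B lymphocytes recognise antigen with a surface antibody, encoded for IgM by Ighm, whose signal is carried into the cell by the partner chains CD79A and CD79B. T lymphocytes use the T cell receptor, whose signal is carried by the CD3 chains and the zeta chain CD247, with CD4 or CD8 as coreceptor. Both kinds of cell live in adipose tissue among the more numerous macrophages, in the stroma between fat cells, in small lymphoid clusters and in the lymph nodes that some fat depots enclose.

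Neither set of lymphocyte genes separated the genotypes. Of the 15 B cell genes, 11 had the higher mean in KSR2-/- fat and 4 in WT fat, with a median difference of 0.41 on the log2 scale, and of the 19 T cell genes 18 had the higher mean in KSR2-/- fat, with a median difference of 0.14. Over all genes 44.4% had the higher mean in KSR2-/- fat and the median difference was −0.04. None of the 34 genes passed limma at an adjusted p under 0.05 (0 of 34, against 1 of 18193 genes, or 0.00550%), and the lowest adjusted p among them was 0.248. At an unadjusted p under 0.05 there were 3 B cell genes, all higher in KSR2-/- fat (Cd37, Ighm and Cd72), and 0 T cell genes, where 6.71% of all genes were higher and 5.38% lower at that level. The KSR2-/- values lay wholly above the WT values in 2 B cell genes, Ighm and Cd37, and in 0 T cell genes, where 7.72% of all genes showed that pattern and 8.56% the opposite one. In bulk tissue, more cells of a type and more RNA per cell cannot be told apart.

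For the T cell genes the larger contrast lay between mice of the same genotype. For the B cell genes, by the list means, this held among the WT mice only. KSR2-/- 1 was the highest KSR2-/- array and WT 1 the highest WT array in 26 of the 34 genes, made up of 17 of 19 T cell genes and 9 of 15 B cell genes, against 15.0% of all genes. Taken alone, KSR2-/- 1 was the highest KSR2-/- array in 18 T cell and 9 B cell genes, against 27.1% of all genes. The mean log2 intensity over the 19 T cell genes was 5.54, 4.72 and 4.86 in KSR2-/- 1 to 3 and 5.51, 4.32 and 4.55 in WT 1 to 3. KSR2-/- 1 and WT 1 thus stood almost level and above the other 4 arrays, so that the mice with most T cell signal came 1 from each genotype. Over the 15 B cell genes the means were 6.43, 6.17 and 6.03 in KSR2-/- 1 to 3 and 6.41, 5.38 and 5.23 in WT 1 to 3. Here all KSR2-/- arrays and WT 1 were high, and WT 2 and WT 3 were low. The genotypes differed in these means by 0.53 over the B cell genes and by 0.25 over the T cell genes.

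**Figure D1:**
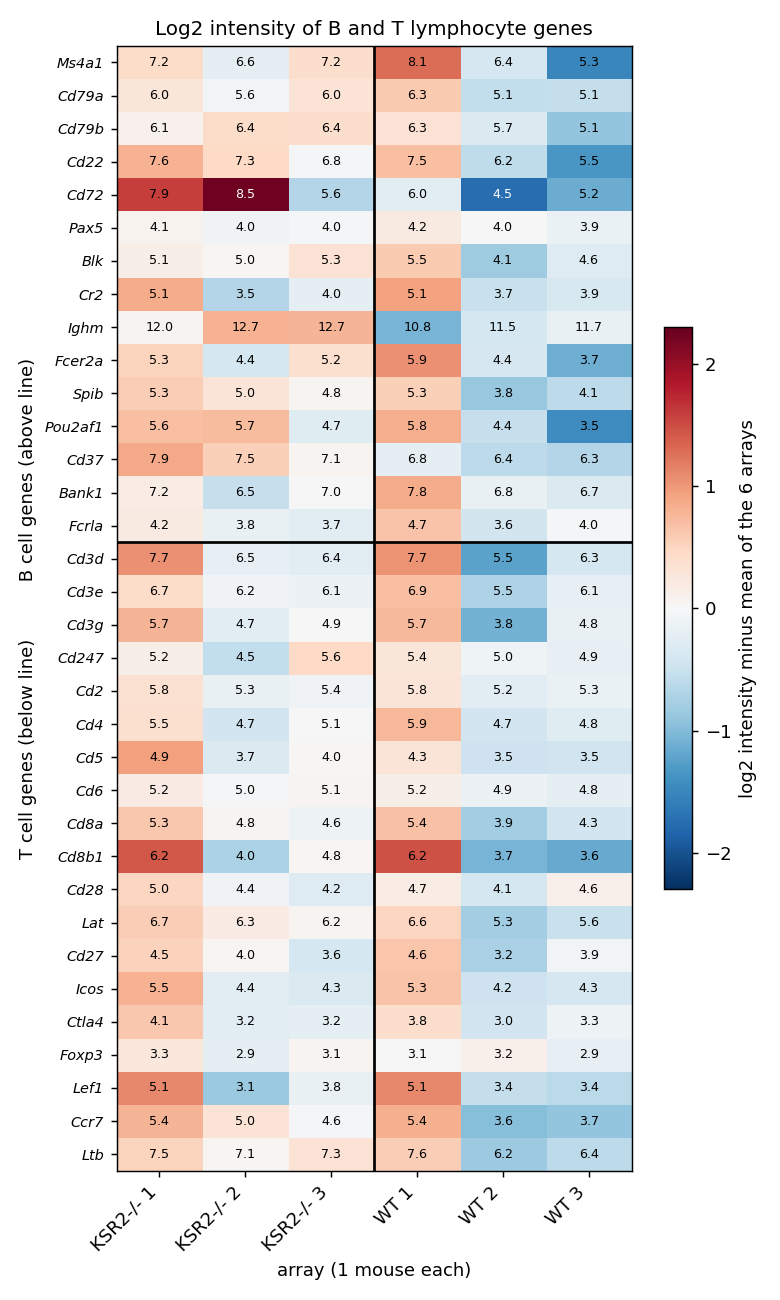
Log2 intensity of the 34 genes (numbers in the cells) on the 6 arrays, coloured by the difference from each gene's mean over the arrays, with the 15 B cell genes above the line, the 19 T cell genes below it, and the KSR2-/- arrays left of the WT arrays. The columns of KSR2-/- 1 and WT 1 are the reddest in most T cell rows, while Ighm has its lowest values on those arrays within each genotype.

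Some facts of the 6 arrays bear on all of this. Levels of the adipocyte genes Adipoq (12.70 to 13.40 in KSR2-/- and 13.46 to 13.58 in WT) and Fabp4 (13.66 to 13.81 and 13.66 to 13.90 in the same order) placed every sample in fat. Ksr2 itself read 4.47, 4.28 and 4.26 in KSR2-/- 1 to 3 and 4.74, 4.04 and 4.47 in WT 1 to 3 (difference −0.08, SE 0.21, limma adjusted p = 0.935), and since the deleted part is not given, this signal does not check the labels. The log2 difference between the 3' and 5' Gapdh control probe sets, which grows as RNA degrades, was 0.47, 1.46 and 0.81 in KSR2-/- 1 to 3 and 0.07, 0.69 and 4.18 in WT 1 to 3. WT 1 and KSR2-/- 1 had the lowest of these values, and WT 3 the highest, and the part of RNA quality in the lymphocyte values was not tested beyond the covariate. With this measure as a covariate the median differences were 0.27 for the B cell genes and 0.08 for the T cell genes. The animal numbers in the labels form a higher-numbered series of 4 mice (KSR2-/- 1 and 2, WT 1 and 2) and a lower-numbered pair (KSR2-/- 3, WT 3), and values within each are given where they matter.

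Among the B cell genes, Ighm, Cd37 and Cd72 had the largest differences. Ighm, the constant region of the IgM heavy chain, read 11.98, 12.72 and 12.70 in KSR2-/- 1 to 3 and 10.85, 11.51 and 11.74 in WT 1 to 3. The groups did not overlap, the mean was 12.47 ± 0.42 in KSR2-/- fat and 11.37 ± 0.46 in WT fat (SD, n = 3 each), and the difference was 1.10 (SE 0.30, 2.14-fold, limma adjusted p = 0.262). It was 1.17 among the higher-numbered mice and 0.96 in the lower-numbered pair, and 0.84 to 1.34 with 1 array left out. KSR2-/- 1 and WT 1 were the lowest arrays of their genotypes for Ighm, the reverse of the order in which they stood for most lymphocyte genes. A second Ighm probe set of high signal had the same shape, with 11.15, 11.58 and 11.75 in KSR2-/- 1 to 3 and 9.84, 10.42 and 10.67 in WT 1 to 3.

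**Figure D2:**
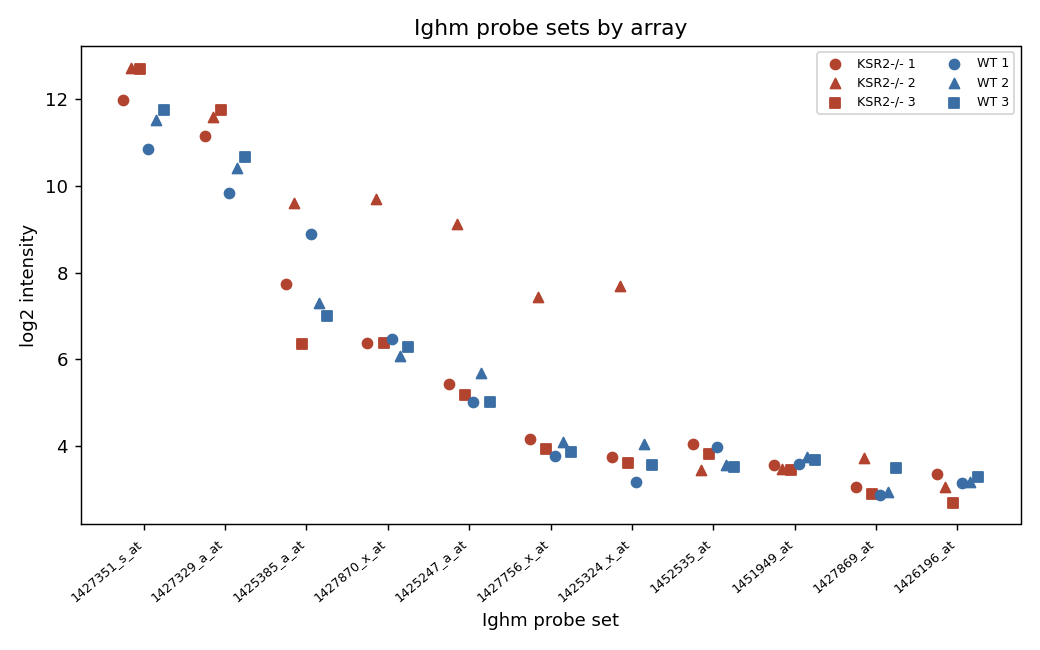
Log2 intensity of the 11 Ighm probe sets, ordered by mean, with KSR2-/- in red and WT in blue and symbols for mouse 1 (circle), 2 (triangle) and 3 (square). In the probe sets of highest signal all KSR2-/- points lie above the WT points, while in 4 further sets KSR2-/- 2 stands alone.

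The 11 Ighm probe sets did not all repeat that separation. The pair of highest signal had KSR2-/- values above all WT values, while of the other 9, 8 overlapped and 1 of low signal lay lower on every KSR2-/- array. The third by mean read 7.74, 9.60 and 6.36 in KSR2-/- 1 to 3 and 8.89, 7.30 and 7.01 in WT 1 to 3. Over the 13 members with more than 1 probe set, 9 of the 29 other probe sets had a difference of the opposite sign, by at most 0.30 log2.

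Cd37, a tetraspanin of B cells that other leukocytes also carry, read 7.88, 7.54 and 7.06 in KSR2-/- 1 to 3 and 6.80, 6.40 and 6.32 in WT 1 to 3. Every KSR2-/- value lay above every WT value, by a difference of 0.99 (SE 0.25, 1.99-fold, limma adjusted p = 0.248). Among the higher-numbered mice it was 1.12 and in the lower-numbered pair 0.74. Its other probe set gave 6.72, 6.95 and 6.43 in KSR2-/- 1 to 3 and 6.41, 5.74 and 5.46 in WT 1 to 3, again without overlap.

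Cd72, an inhibitory coreceptor of B cells that is also found on some macrophages, read 7.88, 8.52 and 5.62 in KSR2-/- 1 to 3 and 6.03, 4.53 and 5.15 in WT 1 to 3. KSR2-/- 1 and 2 stood well above all other arrays, whereas KSR2-/- 3 lay below WT 1, so the groups overlapped. The difference of 2.10 (SE 0.75, 4.28-fold, limma adjusted p = 0.341) was the largest of the 34 genes. It came to 2.91 among the higher-numbered mice and 0.47 in the lower-numbered pair. Without KSR2-/- 3, both Cd72 (2.96, limma adjusted p = 0.0228) and Cd37 (1.21, limma adjusted p = 0.0418) passed over all genes, in a fit that called 816 genes, or 4.49%. The adjusted p ran from 0.0228 to 0.792 for Cd72 and from 0.0418 to 0.721 for Cd37 over the alternatives, and from 0.127 to 0.757 for Ighm.

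The promoters of Cd72, Cd37 and Cd5 are shown because their windows hold the 8 letters described below. Cd72 and Cd37 also had the lowest p among the members for which a promoter window was at hand, whereas Cd5 did not stand out (limma unadjusted p = 0.287). Whether the letters bear on the values was not tested. Windows of 300 bases, from 250 before to 50 after an annotated start, were matched for 23 of the 34 genes from RefSeq (GRCm38.p6). The 8 letters GAGGAAGT, the core bound by the related ETS factors PU.1 of myeloid and B cells and SPI-B of B cells, were found on either strand in the windows of 3 members, the B cell genes Cd72 and Cd37 and the T cell gene Cd5, against 3.20% of all 32851 windows. They begin 49 bases before the start in Cd72, 25 before in Cd37 and 53 before in Cd5, and are in capitals below, read as ACTTCCTC in Cd72 and Cd37, where they lie on the opposite strand. The windows are chr4:43454577-43454876, chr7:45238790-45239089 and chr19:10738925-10739224, all on the minus strand of the chromosome, and run 5′ to 3′ along the gene.
Cd72: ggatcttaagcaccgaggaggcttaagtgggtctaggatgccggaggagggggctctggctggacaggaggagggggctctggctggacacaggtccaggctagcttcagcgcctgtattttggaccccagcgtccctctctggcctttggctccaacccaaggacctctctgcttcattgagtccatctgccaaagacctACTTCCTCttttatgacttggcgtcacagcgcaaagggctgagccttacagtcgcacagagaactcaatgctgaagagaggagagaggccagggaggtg
Cd37: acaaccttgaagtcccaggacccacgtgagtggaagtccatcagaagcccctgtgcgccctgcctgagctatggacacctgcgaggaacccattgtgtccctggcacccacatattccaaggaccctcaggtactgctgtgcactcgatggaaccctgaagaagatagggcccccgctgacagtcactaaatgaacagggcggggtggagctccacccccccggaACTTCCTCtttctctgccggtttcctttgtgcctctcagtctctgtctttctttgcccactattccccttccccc
Cd5: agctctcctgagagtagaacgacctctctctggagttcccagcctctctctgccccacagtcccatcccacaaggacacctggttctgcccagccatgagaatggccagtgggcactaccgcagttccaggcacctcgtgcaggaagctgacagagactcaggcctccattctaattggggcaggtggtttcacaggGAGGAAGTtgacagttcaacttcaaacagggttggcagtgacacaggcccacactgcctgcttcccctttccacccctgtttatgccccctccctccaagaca
A match is a description of letters and not a binding site. The motifs, 10 in all, were searched after the values were known. Counts are of members with a match in any of their windows, and the 23 members had 29 windows. Percentages are of single windows, so counts and percentages are not like for like. The octamer ATGCAAAT, on which the coactivator encoded by Pou2af1 acts, was in 0 of the 23 members and 1.74% of windows, and the palindromic core of early B cell factor in 1 member, Cd22, and 0.904% of windows. The shorter ETS core AGGAAG, contained in the first motif, was in 14 members and 35.4% of windows, and the E-box CAGGTG in 15 and 20.2%. The classical NF-kappaB site of the immunoglobulin kappa enhancer was in 1 member, Ltb (0.155% of windows), CTTTGAT in Cd3d and Ctla4 (3.73%), AGATAA in 3 members (11.2%), TGTGGTT in 0 (5.27%) and TATAAA in 6 (13.6%), all on both strands.

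The B cell genes Ms4a1, Cd22, Cd79a and Cd79b had smaller differences than the 3 above. Ms4a1, which encodes the surface protein CD20, read 7.19, 6.57 and 7.18 in KSR2-/- 1 to 3 and 8.06, 6.38 and 5.27 in WT 1 to 3. The WT arrays spanned 2.79 and enclosed every KSR2-/- value, against a difference between genotypes of 0.41 (SE 0.64, limma adjusted p = 0.873). Cd22, an inhibitory lectin of B cells, read 7.62, 7.27 and 6.79 in KSR2-/- 1 to 3 and 7.51, 6.23 and 5.48 in WT 1 to 3 (difference 0.82, SE 0.50). The receptor chain genes were closer together: Cd79a read 5.96, 5.62 and 6.00 in KSR2-/- 1 to 3 and 6.28, 5.11 and 5.13 in WT 1 to 3 (difference 0.35, SE 0.33), and Cd79b 6.10, 6.42 and 6.40 against 6.34, 5.67 and 5.09 (0.61, SE 0.31). In each of these 4 genes, on the probe set used, WT 1 overlapped the KSR2-/- range or exceeded it, and WT 2 and WT 3 lay below all KSR2-/- arrays. The other Ms4a1 probe set read 5.73, 5.29 and 5.37 in KSR2-/- 1 to 3 and 6.17, 5.14 and 5.34 in WT 1 to 3. On it WT 3 lay above KSR2-/- 2, and the difference was −0.09.

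Pou2af1 and Spib, regulators of the B cell programme, were also highest on WT 1 among the WT arrays, while Pax5 varied little. Pou2af1, the coactivator of octamer factors, read 5.64, 5.69 and 4.68 in KSR2-/- 1 to 3 and 5.78, 4.42 and 3.51 in WT 1 to 3 (difference 0.77, SE 0.57). Spib, the ETS factor SPI-B, read 5.28, 5.00 and 4.78 and, in WT 1 to 3, 5.26, 3.83 and 4.11 (0.62, SE 0.37). Pax5, the factor that fixes B cell identity, read 3.95 to 4.11 in KSR2-/- and 3.87 to 4.24 in WT (−0.03, SE 0.16). Its mean was dim, at percentile 28.1 of all genes, so its small range says little about the genotypes.

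Receptors of mature B cells gave no common direction. Cr2, the complement receptor of B cells and follicular dendritic cells, read 5.07, 3.54 and 4.00 in KSR2-/- 1 to 3 and 5.14, 3.70 and 3.85 in WT 1 to 3, a difference of −0.03 (SE 0.50). KSR2-/- 1 and WT 1 stood apart for Cr2, with the other 4 arrays at 4.00 or below. Fcer2a, the low-affinity IgE receptor CD23, read 5.32, 4.41 and 5.18 in KSR2-/- 1 to 3 and 5.86, 4.42 and 3.70 in WT 1 to 3 (0.31, SE 0.54). The kinase gene Blk (0.34, SE 0.34), the signalling adaptor Bank1 (−0.23, SE 0.35) and Fcrla, an Fc receptor-like protein (−0.14, SE 0.29), also had WT 1 as the highest of all 6 arrays. WT 1 held the highest WT value in 14 of the 15 B cell genes, where it did so in 26.8% of all genes, and the exception was Ighm.

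Among the T cell genes, the 3 CD3 genes varied together over the mice: Cd3d read 7.73, 6.50 and 6.42 in KSR2-/- 1 to 3 and 7.71, 5.46 and 6.28 in WT 1 to 3 (difference 0.40, SE 0.61). Cd3e read 6.67, 6.17 and 6.11 in KSR2-/- and 6.94, 5.55 and 6.07 in WT (0.13, SE 0.36), and Cd3g 5.69, 4.65 and 4.91 in KSR2-/- and 5.66, 3.83 and 4.75 in WT (0.33, SE 0.48). WT 2 was the lowest array in all 3. The zeta chain gene Cd247 departed from them, with 5.24, 4.54 and 5.57 in KSR2-/- 1 to 3 and 5.40, 5.01 and 4.92 in WT 1 to 3, and its highest value on KSR2-/- 3.

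In the coreceptor genes, on the probe set used, KSR2-/- 1 and WT 1 were the highest arrays of their genotypes, as in the 3 CD3 genes. Cd8b1, the beta chain of CD8 on cytotoxic T cells, read 6.20, 4.05 and 4.82 in KSR2-/- 1 to 3 and 6.23, 3.70 and 3.62 in WT 1 to 3. KSR2-/- 1 and WT 1 exceeded the other arrays by more than 1 log2 unit, and the spread within KSR2-/- (2.15) and within WT (2.61) was several times the difference between the genotypes (0.51, SE 0.81). Cd8a read 5.33, 4.78 and 4.60 in KSR2-/- and 5.39, 3.91 and 4.28 in WT (0.37, SE 0.40), and the differences on its other probe sets ran from −0.21 to 0.30. Cd4, the coreceptor of helper T cells, read 5.46, 4.66 and 5.09 in KSR2-/- and 5.86, 4.66 and 4.82 in WT (−0.04, SE 0.36), the 1 T cell gene with the lower mean in KSR2-/- fat.

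Genes of naive and recirculating T cells and of T cell signalling did not share 1 order of arrays. Lef1, a transcription factor of naive T cells, read 5.10, 3.14 and 3.82 in KSR2-/- 1 to 3 and 5.10, 3.44 and 3.37 in WT 1 to 3, a difference of 0.06 (SE 0.62), with KSR2-/- 1 and WT 1 above the other 4 arrays. Ccr7, the receptor that guides lymphocytes to lymph nodes, read 5.42, 4.95 and 4.59 in KSR2-/- and 5.44, 3.65 and 3.73 in WT. It had the largest difference of the T cell genes (0.71, SE 0.49, limma adjusted p = 0.651), which was 0.64 among the higher-numbered mice and 0.86 in the lower-numbered pair. Ltb, the lymphotoxin beta of B and T cells, read 7.53, 7.06 and 7.35 in KSR2-/- and 7.59, 6.18 and 6.41 in WT (0.59, SE 0.37). Lat, the adaptor that links the T cell receptor to its downstream enzymes, read 6.68, 6.29 and 6.18 in KSR2-/- and 6.60, 5.30 and 5.60 in WT (0.55, SE 0.34). In Ccr7, Ltb and Lat, as in Ms4a1 and Cd22, WT 1 sat among the KSR2-/- arrays or above them and WT 2 and WT 3 below them.

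The costimulatory and inhibitory receptors of T cells had small differences on the probe sets used. They were 0.07 for Cd28, 0.14 for Icos, 0.10 for Ctla4 and 0.11 for Cd27, a receptor shared with B cells, with SEs of 0.26 to 0.41. The other Cd28 probe set gave 0.40, and the other Icos probe sets 0.00 and 0.17. The adhesion and scavenger-type receptors Cd2 (0.07, SE 0.22), Cd5 (0.42, SE 0.37) and Cd6 (0.14, SE 0.17) completed the list with Foxp3. Foxp3, the transcription factor of regulatory T cells, read 3.33, 2.86 and 3.15 in KSR2-/- 1 to 3 and 3.07, 3.20 and 2.90 in WT 1 to 3, the 1 T cell gene in which WT 1 was not the highest WT array. The means of Foxp3 and Ctla4 were dim, at percentiles 13.9 and 19.7 of all genes, so their small differences say little about the genotypes. By mean, 15 of the 19 T cell genes and 8 of the 15 B cell genes lay below the median gene. In all 19 T cell genes the spread of the WT arrays exceeded the difference between the genotypes, as it did in 12 of 15 B cell genes and 78.9% of all genes.

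**Figure D3:**
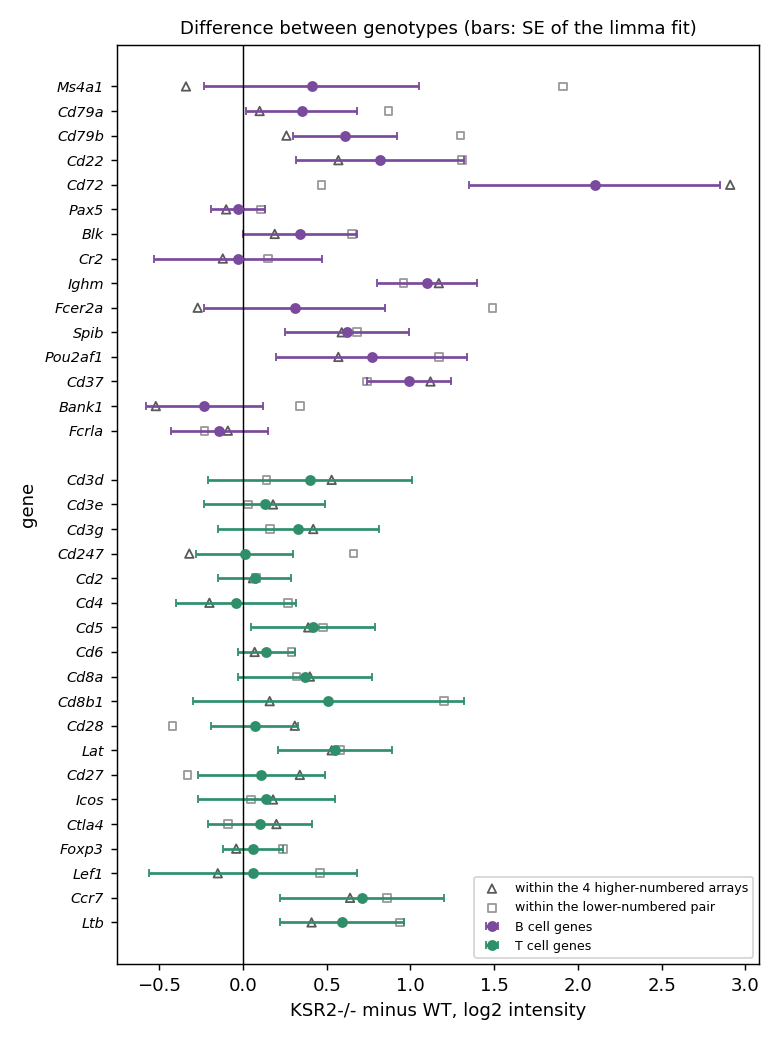
Differences in log2 intensity, KSR2-/- minus WT, for the 15 B cell genes (purple) and the 19 T cell genes (green), with bars for the SE of the limma fit, and open symbols for the difference within the 4 higher-numbered arrays (triangles) and within the lower-numbered pair (squares). Most T cell genes lie within 1 SE of 0, and Cd72 has the largest difference and the widest gap between its open symbols.

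How far the small surplus in KSR2-/- fat holds depended on single mice. Without WT 1, all 15 B cell and all 19 T cell genes had the higher mean in KSR2-/- fat, with median differences of 0.91 and 0.50, where 39.9% of all genes did so. Of them 11 B cell and 4 T cell genes reached an unadjusted p under 0.05 (4.90% of all genes were higher at that level), and none passed after adjustment, with a lowest limma adjusted p of 0.340. Without KSR2-/- 1, 7 of the 19 T cell genes had the higher mean in KSR2-/- fat (48.4% of all genes), with a median of −0.05, and without WT 2 there were 8 (46.4% of all genes), with a median of −0.04. The B cell count was 11 of 15 in both of those fits. Unadjusted p was under 0.05 for 2 of the 34 genes in each, all higher, where 4.89% of all genes were higher at that level without KSR2-/- 1 and 4.30% without WT 2. Without KSR2-/- 3, 12 B cell and 17 T cell genes had the higher mean in KSR2-/- fat (42.1% of all genes), and 3 of the 34 were higher at an unadjusted p under 0.05 (8.69% of all genes). Without WT 3, the array with the largest Gapdh difference (4.18), 9 of 15 B cell and 14 of 19 T cell genes had the higher mean. Their medians were then 0.24 and 0.07, against −0.0 over all genes. With KSR2-/- 1 and WT 1 both left out, a choice made after seeing the data, 13 of 15 B cell genes and 17 of 19 T cell genes had the higher mean in KSR2-/- fat (42.4% of all genes), with medians of 0.92 and 0.23. At an unadjusted p under 0.05 there were then 8 B cell and 5 T cell genes (3.79% of all genes were higher at that level) and none after adjustment, at a lowest limma adjusted p of 0.505. Among the higher-numbered mice 9 B cell and 15 T cell genes had the higher mean in KSR2-/- fat (46.5% of all genes), with medians of 0.19 and 0.20. In the lower-numbered pair, where WT 3 was the only control, the counts were 14 and 16 (40.4% of all genes), with medians of 0.74 and 0.27.

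Markers of other cells were read on the same arrays. Macrophage markers, 14 measured, averaged 10.12, 10.12 and 8.85 in KSR2-/- 1 to 3 and 8.28, 8.36 and 8.20 in WT 1 to 3, with 13 of 14 higher in KSR2-/- fat, a median difference of 1.28 and 0 past limma after adjustment. Itgax, the integrin CD11c of macrophages and dendritic cells, read 9.81, 9.98 and 7.60 in KSR2-/- and 5.89, 5.46 and 6.14 in WT (difference 3.30, SE 0.61, limma adjusted p = 0.197), and Cd68 (2.47, SE 0.53) and the complement gene C1qc (1.07, SE 0.23) had the next lowest p. Itgax and Cd72 were both highest on KSR2-/- 1 and 2, whereas Cd3d and Cd3e were highest on KSR2-/- 1 alone among KSR2-/- arrays. The part of macrophages in the Cd72 and Cd37 values was not tested. The 10 pan-leukocyte genes averaged 10.10, 10.07 and 8.93 in KSR2-/- 1 to 3 and 8.91, 8.60 and 8.60 in WT 1 to 3, all 10 higher, with a median of 0.91. Coro1a (1.12, SE 0.28), Arhgdib (0.85, SE 0.23) and Itgb2 (1.90, SE 0.53) had the lowest p of these, and 0 passed after adjustment.

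A further list held other genes of the B cell receptor pathway and of B cells, among them signalling enzymes that macrophages use as well. Of 18 measured, 14 had the higher mean in KSR2-/- fat and 4 the lower, with a median of 0.70. At an unadjusted p under 0.05 there were 9 higher and 0 lower, against 6.71% and 5.38% of all genes, and 0 passed limma after adjustment. The KSR2-/- values lay wholly above the WT values in 6 and wholly below them in 2, against 7.72% and 8.56% of all genes. Btk, the kinase lost in X-linked agammaglobulinaemia, read 7.43, 7.20 and 5.71 in KSR2-/- 1 to 3 and 5.38, 5.19 and 5.56 in WT 1 to 3 (difference 1.40, SE 0.44). The phosphatase genes Ptpn6 (0.77, SE 0.21) and Inpp5d (1.22, SE 0.38) also had KSR2-/- values above all WT values. The 2 that were lower on every KSR2-/- array were Ikzf3, the lymphoid factor Aiolos (−0.29, SE 0.14), and Vpreb3 (−0.16, SE 0.14). The mean of the 18 genes was 7.11, 7.10 and 6.39 in KSR2-/- 1 to 3 and 6.40, 6.17 and 6.18 in WT 1 to 3.

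Genes downstream of the T cell receptor were divided. Of 18 measured, 9 were higher and 9 lower in KSR2-/- fat, with a median of 0.05. At an unadjusted p under 0.05 there were 3 higher and 0 lower, against 6.71% and 5.38% of all genes, and 0 passed limma after adjustment. Those 3 were the adaptors Lcp2 (0.92, SE 0.35) and Fyb (1.55, SE 0.62), which myeloid cells use as well, and the phosphatase gene Ptpn22 (1.08, SE 0.45). They had differences of −0.09, 0.03 and 0.07 within the lower-numbered pair. In 12 of the 18, KSR2-/- 1 and WT 1 were again the highest arrays of their genotypes.

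**Figure D4:**
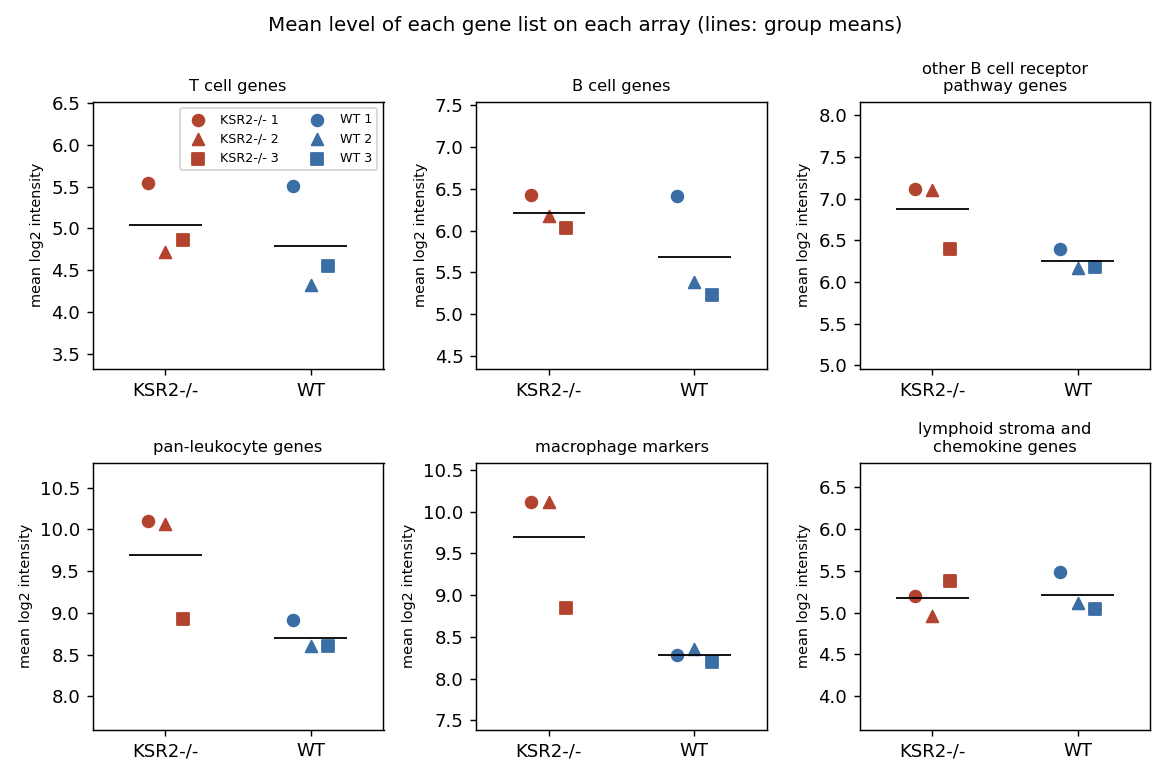
Mean log2 intensity of the measured genes of 6 lists on each array, with KSR2-/- in red left of WT in blue, symbols for mouse 1 (circle), 2 (triangle) and 3 (square), lines for group means and the same height of axis in every panel. T cell genes are highest in KSR2-/- 1 (5.54) and WT 1 (5.51), while macrophage markers are highest in KSR2-/- 1 and 2 (10.12 each).

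By genotype means, most plasma cell genes did not share the direction of Ighm. Of 9 measured, 2 were higher and 7 lower in KSR2-/- fat, with a median of −0.19. The J chain gene Jchain read 8.95, 10.21 and 7.90 in KSR2-/- 1 to 3 and 9.24, 9.75 and 8.98 in WT 1 to 3. Its highest value was on KSR2-/- 2, the array on which the Ighm probe set used was also highest (12.72). Sdc1, which encodes syndecan-1, a marker of plasma cells that epithelia and other cells also carry, read 8.72, 8.55 and 7.25 in KSR2-/- and 6.00, 6.08 and 6.91 in WT (difference 1.84, SE 0.43, limma adjusted p = 0.240). Prdm1 (0.64, SE 0.26) and Eaf2 (−0.79, SE 0.38) came next by p, and 0 of the list passed after adjustment.

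The stroma and chemokines of lymphoid tissue gave no shift, with 5 of 10 measured genes higher, 5 lower and a median of 0.02. Cxcl13, the chemokine that draws B cells into follicles, read 8.61, 8.69 and 8.33 in KSR2-/- 1 to 3 and 9.02, 9.65 and 8.10 in WT 1 to 3 (difference −0.38, SE 0.37). Glycam1, an adhesion ligand of lymph node venules that is also a milk protein, read 4.40, 3.58 and 6.30 in KSR2-/- and 6.27, 3.48 and 4.38 in WT, high in 1 mouse of each genotype but not in KSR2-/- 1. Madcam1, Cxcr5 and Tnfsf11 stayed between 2.81 and 4.02 on all arrays, and Ccr6 differed by 0.26 (SE 0.45) and Fut7 by −0.16 (SE 0.16). Ltbr, the receptor of lymphotoxin beta, was above WT on every KSR2-/- array (8.07, 8.18 and 8.48 in KSR2-/- 1 to 3 and 7.48, 7.91 and 7.86 in WT 1 to 3, limma adjusted p = 0.380). Tnfsf13b, the B cell survival factor BAFF, lay below WT on every KSR2-/- array (6.53, 6.52 and 6.72 in KSR2-/- 1 to 3 and 6.82, 6.99 and 7.32 in WT 1 to 3, limma adjusted p = 0.393), as did the sulfotransferase gene Chst4 (−0.36, SE 0.18). None of the 10 passed after adjustment.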

How the data were processed

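White adipose RNA of 3 KSR2-/- and 3 WT mice was hybridised to 1 Affymetrix array each. The authors deposited RMA intensity values, per the submitters' processing notes, which give no version. The values themselves show a linear scale, with medians of 22.4 to 24.2 and a minimum of 2.96, so log2 was taken without a pseudocount. RMA models all arrays together. Of 45101 probe sets, 34945 had 1 gene symbol, and 34754 of these matched RefSeq gene identifiers (GRCm38.p6). Each of 18193 genes was represented by its probe set with the highest mean. Genotypes were compared by limma 3.58.1 in R 4.3.3 (eBayes without trend, two-sided, Benjamini-Hochberg adjustment over all genes, threshold 0.05). SEs are those of that fit, with a median of 0.216 log2 over genes, and precision is limited by the number of arrays. Lists were described and not tested. Genes named are all members, the 3 genes of lowest p in each of 12 other lists, all measured lymphoid stroma genes, and a few chosen after their values were seen (Jchain, Ikzf3, Vpreb3, Adipoq, Fabp4). The members and lists were chosen with earlier results of these data known. The fit was tested on simulated data. Alternatives were a filter on dim genes, the mean of probe sets, repeated quantile normalization, median centring, an offset of 16, eBayes with trend, the animal number series as a block, the Gapdh covariate, arrays left out, values within each series and, added after seeing the data, KSR2-/- 1 and WT 1 both left out and the second probe set.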

Additional observations from a re-analysis of the deposited data

Results flagged for a closer look

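Ighm had 11 probe sets, of which the one with the highest mean stands for the gene in the comparison. Of the others, 4 read far higher on a KSR2-/- array than on any WT array, by 3.23, 3.34, 3.42 and 3.66 log2, and in each case the array was KSR2-/- 2. The probe set with the gap of 3.23 read 6.38, 9.70 and 6.38 in KSR2-/- 1 to 3 and 6.47, 6.08 and 6.28 in WT 1 to 3. That with the gap of 3.66 read 3.75, 7.70 and 3.62 in KSR2-/- 1 to 3 and 3.17, 4.04 and 3.56 in WT 1 to 3. KSR2-/- 1 and 3 stayed near the WT values in all 4. These values were picked out because a KSR2-/- array exceeded the highest WT array by more than 2 log2 units in probe sets that the comparison did not use, and the reason for the gap was not tested.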

How the results depend on the processing

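Of 18 alternatives, 16 were limma fits. Among them, the filter on dim genes kept 9097 genes and 11 of the 34, and the second probe set was read for 13 of the 34. No lymphocyte gene fitted passed after adjustment in any of the 16 except without KSR2-/- 3, where Cd72 and Cd37 did. The count over all genes, 1, was 12 with the filter on dim genes, 12 with quantile normalization repeated, 16 with centring, 10 with trend, 6 with the Gapdh covariate, 0 with the offset of 16, 0 with a block for the series of animal numbers, 0 without KSR2-/- 1 and WT 1, and 0 to 816 with 1 array left out. The B cell median of 0.41 ran from 0.24 to 0.91 with 1 array left out, lowest without WT 3 and highest without WT 1, and was 0.92 without KSR2-/- 1 and WT 1. The T cell median of 0.14 ran from −0.05 to 0.50. Of the 34 genes, 15 kept their sign in every alternative run and 19 did not. Signs turned for Fcrla (0.04) and Cd247 (−0.03) with the mean of probe sets, Pax5 (0.03) and Cr2 (0.02) with quantile normalization, Cd247 (−0.03) with centring, and Fcer2a (−0.01), Cd247 (−0.08) and Lef1 (−0.21) with the Gapdh covariate. Within the higher-numbered series they turned for Ms4a1 (−0.34), Fcer2a (−0.27), Cd247 (−0.32), Foxp3 (−0.04) and Lef1 (−0.15), and within the lower-numbered pair for Pax5 (0.11), Cr2 (0.15), Bank1 (0.34), Cd4 (0.27), Cd28 (−0.42), Cd27 (−0.33) and Ctla4 (−0.09). Without KSR2-/- 1 and WT 1 they turned for Pax5 (0.03), Fcrla (0.02), Cd4 (0.14), Cd28 (−0.05) and Foxp3 (−0.04), and with the second probe set for Ms4a1 (−0.09), Fcer2a (−0.30) and Fcrla (0.19). With 1 array left out the range crossed 0 for Cd3d (−0.11 to 1.02), Cd3e (−0.19 to 0.50), Cd3g (−0.13 to 0.79), Cd247 (−0.22 to 0.30), Cd2 (−0.10 to 0.23), Cd8b1 (−0.08 to 1.37), Cd28 (−0.16 to 0.23), Cd27 (−0.23 to 0.46), Icos (−0.22 to 0.50), Ctla4 (−0.18 to 0.33), Foxp3 (−0.05 to 0.18), Lef1 (−0.48 to 0.62), Pax5 (−0.11 to 0.07), Cr2 (−0.46 to 0.43), Cd4 (−0.27 to 0.33), Bank1 (−0.46 to 0.13), Fcrla (−0.39 to 0.16), Ms4a1 (−0.24 to 1.16) and Fcer2a (−0.17 to 0.91). The cause of these turns was not tested. No paired analysis was possible because the labels give no shared replicate numbers. Signal over background could not be judged without detection calls.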

Other observations

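Natural killer and cytotoxic genes showed no shared shift, with 8 of 14 measured genes higher in KSR2-/- fat, a median of 0.05 and 0 past limma after adjustment. Gzmk, a granzyme of memory T cells, read 5.46, 5.11 and 4.19 in KSR2-/- 1 to 3 and 4.21, 3.82 and 4.28 in WT 1 to 3. Il2rb, a receptor chain for interleukin 2 and 15 (difference 0.79, SE 0.37), and the chemokine gene Xcl1 (−0.25, SE 0.17) followed by p. Of 8 measured genes of regulatory T cells and innate type 2 lymphocytes, 2 were higher and 6 lower, with a median of −0.12 and 0 past adjustment. Ikzf2, the regulatory T cell factor Helios, was lower on every KSR2-/- array, with 6.84, 6.72 and 6.96 in KSR2-/- 1 to 3 and 7.67, 7.22 and 7.46 in WT 1 to 3 (limma adjusted p = 0.277), while Il10 (0.35, SE 0.23) and Tnfrsf18 (0.27, SE 0.22) had higher means.

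Among the remaining lists, all 11 measured cell cycle genes were higher in mean (median 1.77), with Mcm5 at 1.67 (SE 0.40), Birc5 at 2.46 (SE 0.65) and Ccnb2 at 1.91 (SE 0.57). The list averaged 7.04, 7.53 and 5.42 in KSR2-/- 1 to 3 and 5.10, 5.16 and 5.23 in WT 1 to 3. KSR2-/- 3 thus stood near the WT arrays. Within the lower-numbered pair Mcm5 differed by 0.65, Birc5 by 0.79 and Ccnb2 by 0.50. Neutrophil and mast cell markers had 8 of 10 higher (median 0.53), led by S100a8 (2.31, SE 0.47), Tpsb2 (0.92, SE 0.36) and Camp (0.48, SE 0.22). Red blood cell genes had 2 of 3 higher, Alas2 (0.72, SE 0.30) and Slc4a1 (0.32, SE 0.24), with Hba-a1 at −0.07. Of the 10 adipocyte markers 8 were lower in mean (median −0.28), with Retn at −1.23 (SE 0.42) and Slc2a4 at −1.40 (SE 0.55), and Lep was 1.45 higher in mean (SE 0.57). The adipocyte list averaged 11.13, 11.45 and 12.21 in KSR2-/- 1 to 3 and 11.64, 12.07 and 11.98 in WT 1 to 3, highest on KSR2-/- 3. Within the lower-numbered pair the differences were −0.15 for Retn, 0.30 for Slc2a4 and 0.70 for Lep. In these 4 lists 0 genes passed limma after adjustment.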
